A study of Mus musculus with 4 samples.

Results

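Melanoblasts are the neural crest-derived precursors of pigment cells. They arise from migrating crest cells and from the Schwann cell precursors along nerves, they need the receptor KIT and its ligand to survive and spread, and the transcription factor MITF switches on their melanosome genes. The enzymes of the tyrosinase family then make melanin inside the melanosome, on a fibrous scaffold built from PMEL. The 8 genes described here cover these steps, namely the receptor *Kit*, its ligand *Kitl*, the transcription factor *Mitf*, the melanosome proteins *Pmel* and *Mlana*, and the enzymes *Dct*, *Tyr* and *Tyrp1*. They were picked by name out of 46983 genes in the deposited tables, with the values of *Shh*-/- against WT larynx already known. For that reason their differences between the genotypes are given as a description, without a test.

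RNA was sequenced from mouse larynx (vocal fold) tissue at E10.5 (32 to 35 somites), from 2 *Shh*-/- pools and 2 WT pools, and each pool held 3 larynxes. The mutant embryos carried the *Shh* tm1amc null allele, which was kept on a Swiss Webster background, and the WT embryos were Swiss Webster. The sample labels write the mutant genotype as heterozygous, whereas the series design and the paper give it as *Shh*-/-, the name used here. Swiss Webster is an albino strain, and the pigment genes were followed here as RNA. Levels are in TPM (transcript abundance scaled by length and library total), and differences are the *Shh*-/- mean minus the WT mean of log2(TPM + 1), a scale that understates changes of low genes. The libraries held an estimated 18.3 M and 41.7 M aligned reads in *Shh*-/- pools 1 and 2, and 37.9 M and 39.6 M in WT pools 4 and 6. *Shh* itself was at 10.4 and 10.8 TPM in the mutant pools (*Shh*-/-) and at 23.7 and 42.1 TPM in the WT pools. The whole-gene value does not separate the deleted part of *Shh*, so it does not check the allele. The Hedgehog target *Hhip*, which encodes a Hedgehog-binding protein, was at 0.149 and 0.635 TPM against 11.3 and 15.2 TPM (log2 difference −3.36, SE 0.27, limma adjusted p = 0.0323), and *Ptch1*, the receptor gene that the pathway induces, also fell (log2 difference −2.00, adjusted p = 0.0319).

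Because MITF binds E-boxes upstream of the tyrosinase family genes, the 250 bases before each RefSeq start site (GRCm38.p6, the mm10 build) were searched on both strands for 3 sets of letters. These were CATGTG, the longer M-box form TCATGTG, which contains it, and the palindrome CACGTG. Promoters were listed for 6 of the 8 genes, 9 in all, and *Pmel* and *Mlana* had no entry. The M-box letters were present upstream of *Dct*, *Tyr* and *Tyrp1*, and in 3.25% of 32851 promoters genome-wide. CATGTG was found upstream of the same 3 genes and in 12.3% of all promoters. CACGTG, present in 6.02% of all promoters, was in none of the 9. The RefSeq starts of *Tyr* (chr7:87493512) and *Tyrp1* (chr4:80834213) differ from the edges of the gene intervals given further on. The *Tyrp1* M-box lies inside its gene interval, and distances are counted from the RefSeq starts. The 19-base windows below are shown because they align the 3 enzyme genes on this element, whose letters are in capitals and whose first base lay 151, 22 and 47 bases before the start site.
Dct: ttagggTCATGTGctaaca
Tyr: agttagTCATGTGctttgc
Tyrp1: agggagTCATGTGctgcct

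The upstream windows of *Dct* (chr14:118052247-118052496, minus strand) and *Tyr* (chr7:87493513-87493762, minus strand) are given in full, since these are the family members with RNA in the larynx. *Dct* held a second copy of the M-box letters on the opposite strand, and the *Tyr* window was much poorer in G and C, at 28.8% against 54.0% for *Dct*. Capitals mark the M-box letters in either orientation.
Dct: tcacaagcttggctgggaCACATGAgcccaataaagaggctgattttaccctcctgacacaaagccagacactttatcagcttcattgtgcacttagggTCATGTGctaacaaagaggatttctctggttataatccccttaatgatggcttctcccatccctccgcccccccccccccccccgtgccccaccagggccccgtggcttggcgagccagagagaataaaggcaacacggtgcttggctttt
Tyr: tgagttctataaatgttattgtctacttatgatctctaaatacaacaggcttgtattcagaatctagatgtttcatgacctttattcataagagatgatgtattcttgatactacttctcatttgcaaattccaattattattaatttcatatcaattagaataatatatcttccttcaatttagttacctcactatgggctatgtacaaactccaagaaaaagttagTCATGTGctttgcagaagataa

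RNA of the melanosome and enzyme genes was found almost wholly in the mutant pools, RNA of *Kit* and *Mitf* was present in both genotypes at unequal levels, and the *Kitl* values of the genotypes overlapped. In whole tissue, more cells of a type and more RNA per cell cannot be told apart. *Tyrp1* and *Mlana* were listed at 0 throughout. Of the 8 genes, 5 (*Pmel*, *Dct*, *Mitf*, *Kit* and *Tyr*) had both *Shh*-/- pools above both WT pools, an order that 38.0% of the 16972 tested genes and 16.3% of the 11552 genes above 0 with a mean under 1 TPM also showed. A mean of 1 TPM over the 4 libraries was required for testing, and 5 of the 8 genes reached it. *Pmel* and *Dct* reached it through the *Shh*-/- pools, since their WT values were below 1 TPM. *Tyr*, *Tyrp1* and *Mlana* did not reach it.

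**Figure D1:**
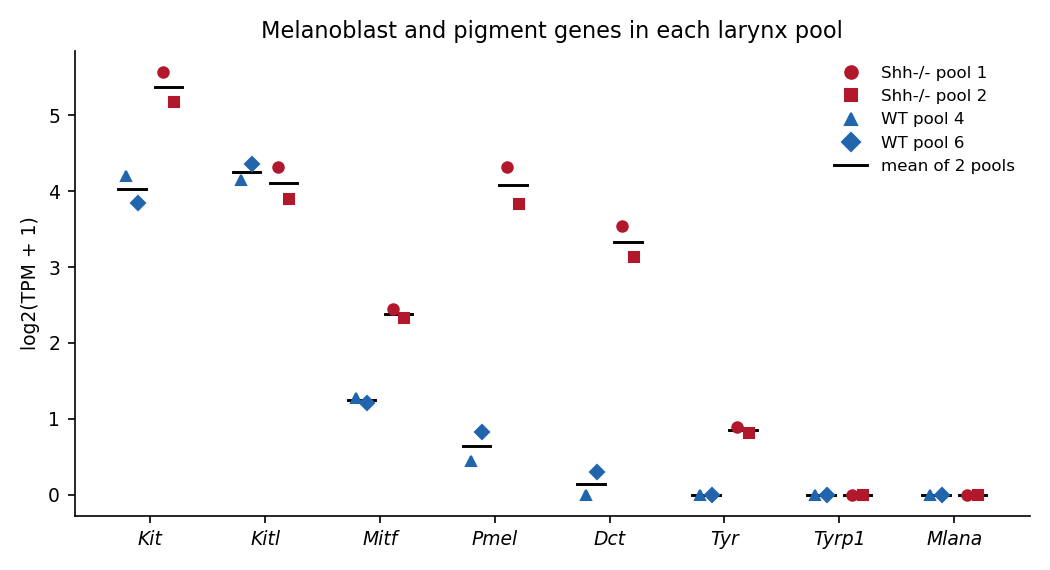
Level of each of the 8 genes as log2(TPM + 1) in the 2 WT pools (blue) and 2 *Shh*-/- pools (red), with a bar at the mean of the 2 pools. *Pmel*, *Dct* and *Tyr* sit at or near 0 in WT and above it in both *Shh*-/- pools, the *Kitl* points overlap, and *Tyrp1* and *Mlana* are at 0 in all 4 pools.

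*Kit* (ENSMUSG00000005672.12, mm10 chr5:75574916-75656722, plus strand) encodes the receptor tyrosine kinase that melanoblasts share with blood progenitors, mast cells and germ cells. It measured 46.6 and 35.3 TPM in the mutant pools, against 17.4 and 13.4 TPM in WT. The groups did not overlap, and the lower *Shh*-/- pool was above the higher WT pool. The means were 41.0 ± 8.00 TPM (SD, n = 2) and 15.4 ± 2.84 TPM (SD, n = 2), a ratio of 2.66 and a log2 difference of 1.35. *Kit* lies on the same chromosome as *Shh*, 47.1 megabases away.

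*Kitl* (ENSMUSG00000019966.17, chr10:100015630-100100413, plus strand) encodes the ligand of KIT, which epithelial, endothelial and mesenchymal cells present to melanoblasts. Its values were 18.9 and 13.8 TPM in the mutant pools, against 16.8 and 19.5 TPM in WT. The groups overlapped, with 1 *Shh*-/- pool below both WT pools and the other between them. The means were 16.4 ± 3.59 TPM (SD, n = 2) and 18.1 ± 1.93 TPM (SD, n = 2), and the log2 difference of −0.15 was smaller than the pooled SD of 0.24 on that scale. Without *Shh*-/- pool 2 the log2 difference was 0.06, so its sign rested on that pool. The proportion of receptor to ligand RNA did not overlap between the genotypes. TPM of *Kit* was 2.46 and 2.55 times that of *Kitl* in the mutant pools, and 1.04 and 0.687 times in the WT pools.

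*Mitf* (ENSMUSG00000035158.15, chr6:97807052-98021349, plus strand) encodes the basic helix-loop-helix leucine zipper factor that controls melanocyte identity, and other cell types use it from alternative first exons. It was at 4.46 and 4.0 TPM in the mutant pools, against 1.42 and 1.31 TPM in WT. The groups were apart, and the pools of each genotype lay close together. The means of 4.23 ± 0.33 TPM and 1.37 ± 0.08 TPM (SD, n = 2 each) gave a ratio of 3.10 and a log2 difference of 1.14. The 3 RefSeq starts of *Mitf* are summed in the gene table, so the melanocyte form could not be read separately. Of its paralogs *Tfe3*, *Tfeb* and *Tfec*, 0 of 3 were called in limma, with 1 at an unadjusted p under 0.05. That was *Tfe3*, at 18.5 and 15.5 TPM against 12.3 and 10.2 TPM (log2 difference 0.555, SE 0.17, limma adjusted p = 0.153). The largest log2 difference was 0.61 for *Tfeb* (SE 0.38, adjusted p = 0.358), whose pools overlapped.

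*Pmel* (ENSMUSG00000025359.9, chr10:128706258-128720238, plus strand) encodes the protein that forms the amyloid fibrils of the melanosome. It had 19.0 and 13.2 TPM in the mutant pools against 0.359 and 0.777 TPM in the WT pools. With reads of 75 nt and the 2130-base transcript *Pmel*-201, these values correspond to about 356 and 583 reads against 15 and 33 reads, so the WT RNA was low but was counted in both pools. The means were 16.1 ± 4.14 TPM and 0.568 ± 0.296 TPM (SD, n = 2 each), a ratio of 28.4. The log2 difference was 3.44. *Pmel* overlaps by 98 bases with *Dgka* on the opposite strand, which was at 10.3 and 9.24 TPM in the mutant pools and 6.11 and 6.69 TPM in WT.

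*Dct* (ENSMUSG00000022129.3, chr14:118012792-118052246, minus strand) encodes dopachrome tautomerase, an enzyme of melanin synthesis and one of the earliest melanoblast markers. Its values were 10.6 and 7.75 TPM in the mutant pools, while WT pool 4 was listed at 0 and WT pool 6 at 0.223 TPM. On the 2202-base transcript *Dct*-201 this is about 205 and 354 reads in the mutant pools and 10 reads in WT pool 6. At that depth 1 read is worth 0.0239 TPM in WT pool 4. The mean was 9.17 ± 2.01 TPM (SD, n = 2) in *Shh*-/-, and the log2 difference was 3.19. *Pmel* exceeded *Dct* 1.80-fold and 1.70-fold in the mutant pools, and 3.48-fold in the WT pool that held both.

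*Tyr* (ENSMUSG00000004651.5, chr7:87427405-87493411, minus strand) encodes tyrosinase, the rate-limiting enzyme of melanin synthesis. It was listed at 0.859 and 0.760 TPM in the mutant pools and at 0 in both WT pools. The mutant values were alike but under 1 TPM, and no fold change was formed against a group listed at 0. *Tyrp1* (chr4:80834123-80851719, plus strand), which encodes a further melanin enzyme, and *Mlana* (chr19:29697921-29708448, plus strand), which encodes a melanosome protein, were at 0 in all 4 libraries. A 0 in these tables can also be a failed estimate, since all 37 mitochondrially encoded genes are listed at 0. Of the 3 enzyme genes whose windows are printed above, *Dct* and *Tyr* thus had RNA in the mutant pools.

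In the *Shh*-/- pools the order of levels was *Kit*, *Kitl*, *Pmel*, *Dct*, *Mitf* and *Tyr*. The ranges of *Kitl* and *Pmel* overlapped, and the ranges of the other neighbours in that order did not. In WT the order was *Kitl*, *Kit*, *Mitf*, *Pmel* and *Dct*, and here the ranges of *Kitl* and *Kit* overlapped. *Pmel* thus stood below *Mitf* in WT, at 0.252 and 0.594 of its level, and above it in the mutant, at 4.26 and 3.30 times its level.

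**Figure D2:**
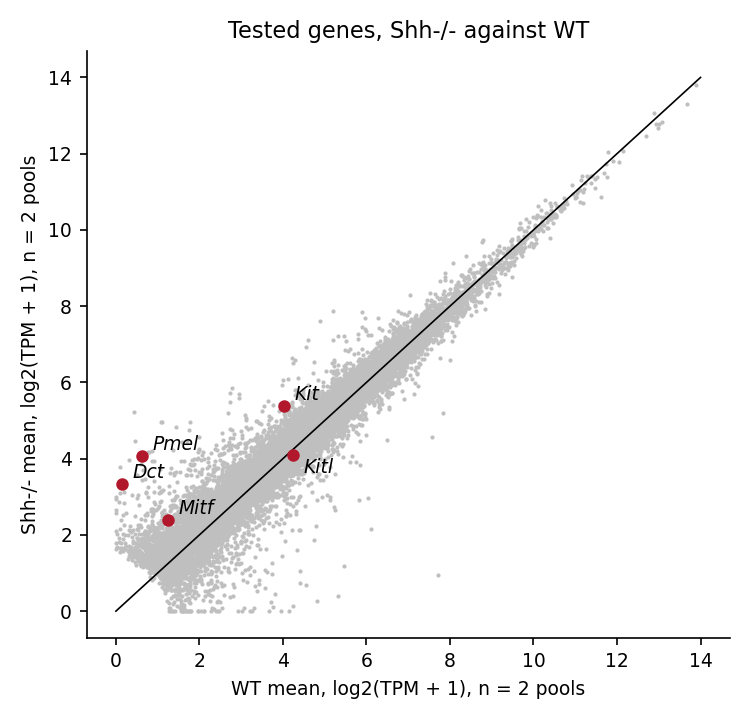
Mean log2(TPM + 1) of the 2 *Shh*-/- pools against that of the 2 WT pools for 16972 tested genes (grey) and the 5 of the 8 genes that were tested (red), with the line of equality. *Pmel* and *Dct* are above the line by 3.44 and 3.19, and *Kit* and *Mitf* by 1.35 and 1.14. *Kitl* is next to the line.

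*Sox10*, the crest transcription factor kept in melanoblasts and glia, was at 34.0 and 28.6 TPM in the mutant pools, against 18.2 and 11.7 TPM in WT embryos (log2 difference 1.05, SE 0.24, limma adjusted p = 0.109). Each library was therefore also expressed relative to its own *Sox10*. *Pmel* was at 0.560 and 0.460 of the *Sox10* level in the mutant pools and at 0.0197 and 0.0667 in WT. *Dct* was at 0.312 and 0.270 against 0 and 0.0192. *Kit* had ratios of 1.37 and 1.23 in the mutant against 0.956 and 1.15 in WT, and *Mitf* had 0.131 and 0.140 against 0.0781 and 0.112. The ratios of *Pmel* and *Dct* were far apart between the genotypes, and those of *Kit* and *Mitf* were near each other although they did not overlap.

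**Figure D3:**
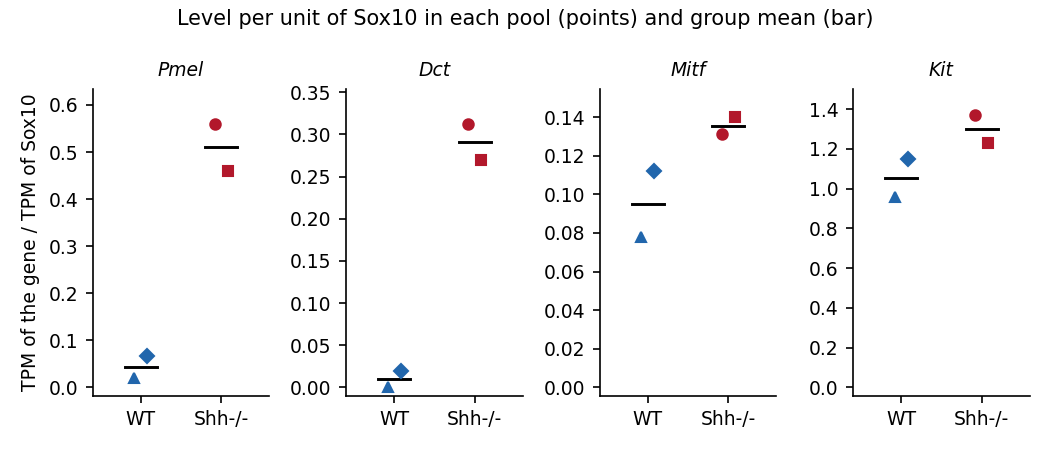
TPM of *Pmel*, *Dct*, *Mitf* and *Kit* divided by TPM of *Sox10* in the same library, for WT pools 4 and 6 (blue triangle and diamond) and *Shh*-/- pools 1 and 2 (red circle and square), with a bar at the mean of 2 pools and a separate linear axis for each gene. *Pmel* moves from at most 0.0667 in WT to at least 0.460 in *Shh*-/-, while *Kit* moves from at most 1.15 to at least 1.23.

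Other regulators of melanoblasts moved unevenly. Of all 16972 genes tested in limma (log2(TPM + 1), Benjamini-Hochberg adjustment, threshold 0.05), 0.725% were called, 0.560% as higher and 0.165% as lower in *Shh*-/-. An unadjusted p under 0.05 was reached by 4202 of the 16972 genes, the background for the counts at that threshold in each list. Of 15 regulators other than the 8 genes, 1 was called higher and 0 lower, and 8 had an unadjusted p under 0.05. Their median log2 difference was 0.32 against 0.08 for all tested genes. The gene called was *Pax3*, a paired-box factor of crest cells that acts on *Mitf* with SOX10. It rose from 0.270 and 0.0392 TPM in WT to 3.77 and 3.84 TPM in *Shh*-/- (log2 difference 2.06, SE 0.23, limma adjusted p = 0.047). *Pax3* reached the mean of 1 TPM needed for testing only through the *Shh*-/- pools. Its call is therefore not independent of that filter. Its call was lost when any 1 pool was left out (adjusted p from 0.115 to 0.162), with a pseudocount of 0.1 (0.0787), without the filter (0.146) and after correction for GC content and transcript length (0.0506), while the difference stayed at 1.41 or more.

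*Tfap2a*, a crest specifier, was at 19.8 and 15.8 TPM against 7.23 and 4.02 TPM (log2 difference 1.54, SE 0.28, limma adjusted p = 0.0887). *Lef1*, a nuclear effector of WNT signaling, which promotes melanoblast fate, had a log2 difference of 0.92 (SE 0.21, adjusted p = 0.108 in limma). The endothelin receptor *Ednrb*, which melanoblasts need to migrate, was at 29.9 and 35.8 TPM against 25.2 and 26.7 TPM (log2 difference 0.32, SE 0.14, adjusted p = 0.231), and its ligand *Edn3* had a log2 difference of 0.05 (SE 0.17, adjusted p = 0.869). Both ligands of the survival pathways, *Kitl* and *Edn3*, were thus at overlapping levels in the genotypes. The protease gene *Adamts20*, which supports melanoblast survival, stood in the other direction, at 0.989 and 1.05 TPM in *Shh*-/- against 12.2 and 3.95 TPM in WT (log2 difference −2.00, SE 0.49, adjusted p = 0.118), and its WT pools were far apart.

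Other pigment cell genes were split by their level. Of 20 such genes, 12 were tested and 0 were called in limma, 4 had an unadjusted p under 0.05, and the median log2 difference was 0.21. The 8 that were too low to test include *Oca2* and *Ptgds*, listed at 0 in every library. In the other 6, both *Shh*-/- pools were above both WT pools, against 16.3% of all low genes. They were *Gpnmb*, a melanosomal glycoprotein related to PMEL (1.35 and 0.933 TPM against 0.0285 and 0 TPM), the melanosome transporter *Slc45a2* (0.268 and 0.580 against 0.0353 and 0.116 TPM), and *Gpr143*, a melanosomal receptor (0.643 and 0.320 TPM, listed at 0 in both WT pools). *Mlph*, which links melanosomes to myosin, was at 0.430 and 0.887 TPM against 0.0845 and 0 TPM. The cation channel gene *Trpm1* was at 0.595 and 0.140 TPM against 0.0184 and 0.0261 TPM, and the melanocortin receptor *Mc1r* at 0.219 and 0.0921 TPM against 0.0145 and 0.0137 TPM. All 6 were at 1.35 TPM or less, the mutant pools of most of them were far apart, and the order was not tested.

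Of the 12 tested pigment cell genes, 7 had a log2 difference above 0 and 5 below 0. Of all tested genes, 58.3% had a log2 difference above 0, so this split was near the background. *Mreg*, which acts in melanosome transfer, was at 16.8 and 16.1 TPM against 6.33 and 3.34 TPM (log2 difference 1.63, SE 0.28, limma adjusted p = 0.0806). *Myo5a*, the myosin that carries melanosomes, was at 32.2 and 26.1 TPM against 24.3 and 26.3 TPM (log2 difference 0.19, SE 0.15, adjusted p = 0.453). *Slc24a5*, a melanosomal ion exchanger, was lower in both *Shh*-/- pools, at 1.13 and 1.23 TPM against 1.88 and 2.38 TPM (log2 difference −0.52, SE 0.22, adjusted p = 0.224). *Gsta4*, the gene of the list with the highest mean, was also lower in both. It was at 151.5 and 145.2 TPM against 200.6 and 244.5 TPM (log2 difference −0.575, SE 0.126, limma adjusted p = 0.104). *Rab38* was lower in both as well (log2 difference −0.471, SE 0.237, limma adjusted p = 0.282). *Asip*, listed as *a* and encoding the agouti signal that opposes MC1R, was at 6.66 and 3.68 TPM in *Shh*-/- and listed at 0 in both WT pools (limma adjusted p = 0.0542). *Asip* thus passed the filter for testing only through the *Shh*-/- pools. Its interval overlaps 3 other listed genes, 2 of them on the same strand, so reads could be split between them and its values are uncertain.

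**Figure D4:**
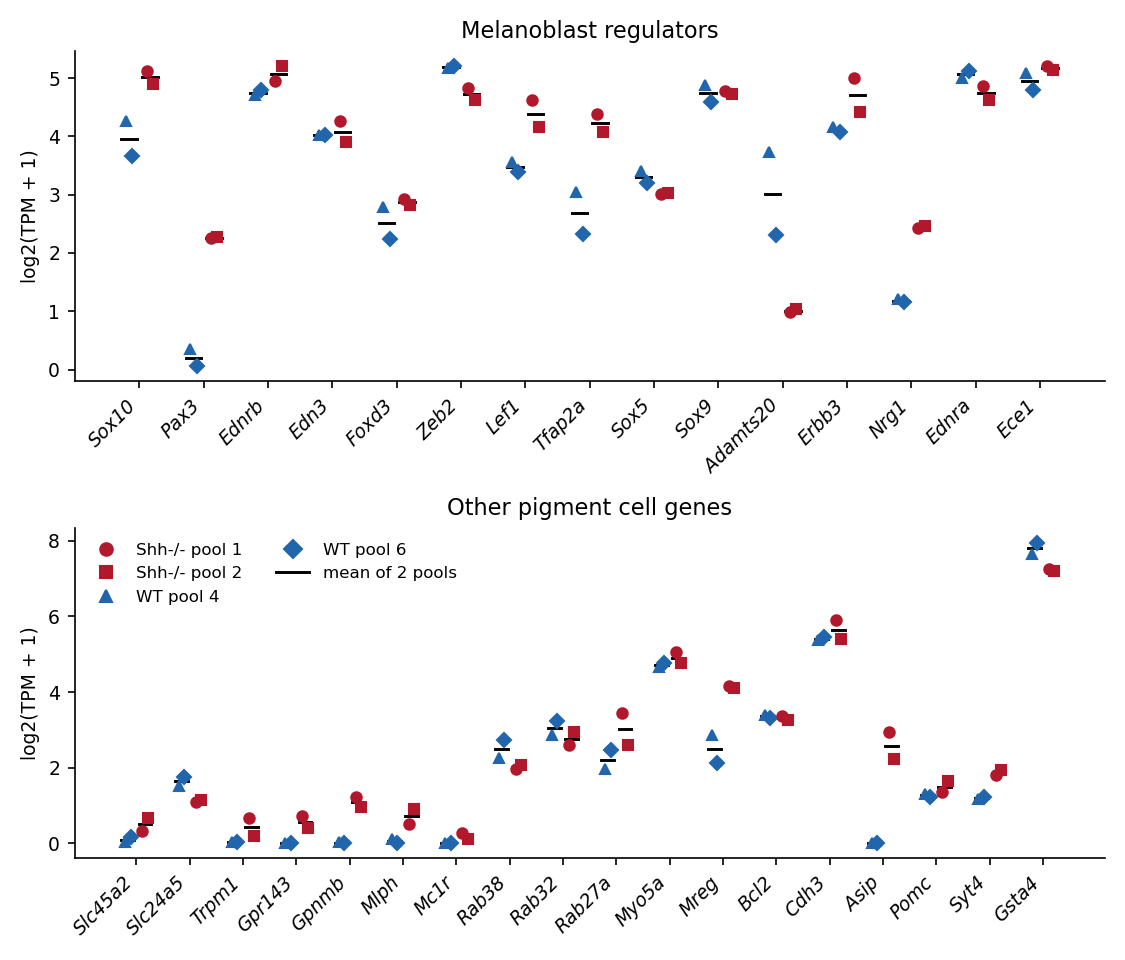
Levels as log2(TPM + 1) of 15 melanoblast regulators (top) and of the 18 other pigment cell genes above 0 (bottom) in the WT pools (blue) and *Shh*-/- pools (red), with a bar at the mean of 2 pools. *Pax3* goes from at most 0.270 TPM to at least 3.77 TPM in the upper panel, *Adamts20* lies lower in the mutant, and the 6 low genes from *Slc45a2* to *Mc1r* other than *Slc24a5* are near 0 in WT.

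Melanosome biogenesis was examined with 20 genes, most of them of the HPS, BLOC and AP-3 complexes, with *Lyst*, *Atp7a*, *Vps33a* and *Tpcn2* beside them. In limma 0 of 20 were called, 7 had an unadjusted p under 0.05 and the median log2 difference was 0.23. *Bloc1s1* was the highest, at 144.1 and 164.0 TPM against 128.8 and 130.4 TPM (log2 difference 0.24, SE 0.11, adjusted p = 0.232), and *Atp7a*, the copper pump that supplies tyrosinase, was at 17.6 and 17.6 TPM against 29.4 and 44.6 TPM (log2 difference −1.0, SE 0.22, adjusted p = 0.104). Among 26 signaling genes below KIT, 0 were called in limma, 10 had an unadjusted p under 0.05 and the median was 0.33. Of the 26, 21 had a log2 difference above 0, as did 58.3% of all tested genes. *Dusp6*, a feedback phosphatase of the ERK pathway, had the lowest adjusted p of these, at 91.1 and 96.7 TPM against 62.6 and 51.9 TPM (log2 difference 0.71, SE 0.13, adjusted p = 0.0883).

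Genes of the nerve-associated cells from which melanoblasts can arise were also higher in the mutant. Of 7 tested Schwann cell precursor genes, 2 were called higher and 0 lower, with a median log2 difference of 0.93. *Ngfr*, the low-affinity neurotrophin receptor of crest cells, rose from 12.2 and 8.66 TPM to 38.5 and 35.5 TPM (log2 difference 1.75, SE 0.19, limma adjusted p = 0.047). *Gap43*, shared with growing axons, rose from 52.2 and 43.1 TPM to 116.8 and 117.2 TPM (log2 difference 1.28, SE 0.13, adjusted p = 0.0433). *S100b*, a glial calcium-binding protein gene, was below 0.170 TPM everywhere. The summed level of the 10 genes was 205.5 to 213.4 TPM in *Shh*-/- and 79.7 to 94.5 TPM in WT. Of 12 neuron genes 6 were called higher and 0 lower (*Elavl3*, *Stmn2*, *Tubb3*, *Prph*, *Nefl* and *Gap43*). *Isl1*, of the same list, was lower in both mutant pools, at 68.3 and 57.3 TPM against 93.1 and 115.7 TPM (log2 difference −0.72, SE 0.16, limma adjusted p = 0.104). The sum of the 12 neuron genes was 912.7 to 991.0 TPM against 274.9 to 326.6 TPM. The sums of both lists were higher in *Shh*-/-, as were *Pmel*, *Dct*, *Tyr*, *Mitf* and *Kit*. The sum of the 20 other pigment cell genes overlapped between the genotypes, at 264.8 to 301.9 TPM in *Shh*-/- against 298.9 to 349.4 TPM in WT. The part of nerve-associated cells and neurons in the differences of the pigment genes was not tested.

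Markers of the other cells that use these genes were followed beside them. For the retinal pigment epithelium, the eye's own pigment layer, *Rpe65*, *Six6* and *Crx* were listed at 0 in all 4 libraries. *Otx2* was at 0.0991 and 0.556 TPM in the mutant pools and listed at 0 in both WT pools. *Pax6* was at 1.59 and 1.67 TPM against 0.387 and 0.465 TPM (log2 difference 0.88, SE 0.22, limma adjusted p = 0.123). *Pax6* too passed the filter for testing only through the mutant pools. *Lrat* and *Ttr* were lower in both mutant pools. The sum of these 10 genes was 3.44 to 4.15 TPM in *Shh*-/- and 3.38 to 114.1 TPM in WT, where *Ttr* alone gave 112.3 TPM in WT pool 4 and 2.19 TPM in pool 6. In limma 0 of 3 tested genes were called, with 1 at an unadjusted p under 0.05. For mast cells and blood progenitors, *Cpa3* and *Fcer1a* were listed at 0 throughout and *Ptprc* was at most 0.440 TPM. *Gata1*, an erythroid factor, was at 4.41 and 6.88 TPM against 7.09 and 6.67 TPM, and *Myb*, a progenitor factor, at 3.68 and 4.94 TPM against 6.16 and 6.10 TPM. *Gata2*, a factor of mast cells and progenitors, was higher in both mutant pools, at 7.44 and 5.78 TPM against 4.35 and 3.35 TPM (log2 difference 0.65, SE 0.22, limma adjusted p = 0.166), as was *Tal1* (0.37, SE 0.17, adjusted p = 0.244), and *Lmo2* had a log2 difference of 0.66 with overlapping pools (SE 0.42, adjusted p = 0.37). Of 7 tested genes of that list 0 were called and 2 had an unadjusted p under 0.05, with sums of 176.1 to 199.0 TPM against 133.7 to 149.6 TPM that were mostly *Cd34* and *Kdr*. Among germ cell genes, *Dppa3* was listed at 0 and *Pou5f1* was at most 0.171 TPM. *Dnd1* was at 3.12 and 4.09 TPM against 1.95 and 2.16 TPM. *Tfap2c* was at 3.39 and 2.53 TPM against 1.84 and 1.15 TPM. *Ddx4*, at most 0.438 TPM, was also higher in both mutant pools, and the pools of *Nanos3* overlapped. Of 3 tested germ cell genes 0 were called, 2 had an unadjusted p under 0.05, and the sum of 6 was 9.27 to 10.1 TPM against 4.05 to 7.65 TPM.

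Markers of the surrounding tissues were followed in the same way. All 12 listed genes called here lost the call when any 1 pool was left out, and *Stmn2*, *Tubb3* and *Twist1* alone held it after correction for GC content and length. Of 8 endothelial genes 1 was called higher, the receptor gene *Tie1* (log2 difference 1.17, SE 0.13, limma adjusted p = 0.047), and their sum was 324.0 to 367.9 TPM in *Shh*-/- against 218.1 to 223.8 TPM in WT. Of 10 heart and muscle genes 2 were called higher, *Myh6* (1.76, SE 0.18, adjusted p = 0.0448) and *Myh7* (2.13, SE 0.21, adjusted p = 0.0422), with sums of 227.0 to 342.8 TPM against 137.2 to 141.8 TPM. *Nkx2-5*, a cardiac transcription factor, stood in the other direction, at 5.97 and 4.73 TPM against 18.5 and 13.6 TPM (log2 difference −1.42, SE 0.22, limma adjusted p = 0.0697). Of 8 mesenchyme genes 1 was called higher, *Twist1* (1.57, SE 0.12, adjusted p = 0.0323), whereas *Foxf1*, a marker of foregut mesenchyme, was at 0.848 and 9.57 TPM against 72.3 and 64.6 TPM (−3.97, SE 0.81, adjusted p = 0.0976). The mesenchyme sum was 510.2 to 546.2 TPM against 410.9 to 427.7 TPM. Of 10 epithelial genes 0 were called in limma and 4 had an unadjusted p under 0.05. Their sums of 605.0 to 693.8 TPM and 642.1 to 657.3 TPM overlapped. *Epcam* and *Krt8* were at 84.0 TPM or more in every pool and higher in both mutant pools (log2 differences 0.33 and 0.44, adjusted p = 0.205 and 0.128 in limma). The foregut factors *Foxa2*, *Nkx2-1* and *Foxa1* lay lower in both mutant pools, with log2 differences of −2.13 (SE 0.29, adjusted p = 0.0602), −1.64 (SE 0.25, adjusted p = 0.0715) and −1.0 (SE 0.21, adjusted p = 0.102). The part of these differences in the levels of the pigment genes was not tested.

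The genes with the pattern most like each anchor were taken by the distance between log2(TPM + 1) values after the mean of the 4 libraries was removed, among 16972 genes. Nearest to *Pmel* were *Dnm3os* (distance 0.13), *Dct* (0.27) and *Hmx1* (0.27), and *Dnm3os* measured 19.7 and 14.7 TPM against 0.447 and 1.07 TPM. *Pcbp3*, *Gsap* and *Ccdc64* were nearest to *Mitf*, all within 0.03, and *Gsg1l* and *Gadd45g* were among the 3 nearest to *Kit*, within 0.07. *Kitl* lay closest to *4632427E13Rik*, *Hadhb* and *Gm9517*, within 0.03. Over 4 libraries these lists reflect the genotype difference and the spread of the pools, and *Dct* was the one pigment gene among those named.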

How the data were processed

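RNA was taken from the 4 pools of larynx tissue into stranded, poly(A)-selected, single-end libraries. Alignment by the authors used HISAT2 2.1.0 on mm10, and StringTie 1.3.6 made the gene tables. The deposited tables give coverage (mean read coverage, not scaled between libraries), FPKM (coverage scaled by the aligned bases, by the authors) and TPM (FPKM scaled by the authors to a constant library total). Read counts were not used here. Depth is coverage divided by FPKM, with an assumed read length of 75 nt.

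Rows of 1 gene ID were added up, and log2(TPM + 1) was fitted with limma 3.58.1 in R 4.3.3 (trended eBayes, no covariates, mean TPM of at least 1, Benjamini-Hochberg adjustment). The 8 genes and all lists were chosen with earlier results of these data known. Named by rule were the 8 genes, the called genes of each list or else its 4 with the highest mean TPM, defining genes at 0, Hedgehog genes, and the 3 nearest genes of *Pmel*, *Mitf*, *Kit* and *Kitl*. Other listed genes were named after their values were seen (among them *Adamts20*, *Lef1*, *Tfap2a*, *Edn3*, *Slc24a5* and the 6 low pigment genes), as was *Dgka*. Some genes that the rule names are not reported here. Promoters are RefSeq, GRCm38.p6. Pools were not stated to come from separate litters. The limma p-values set each difference against a variance estimated from these pools and shared over the tested genes. Whether they cover variation between litters is not known. Simulated data were used to test the fit. Exact permutation of 2 pools against 2 cannot go below p = 0.33.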

Additional observations from a re-analysis of the deposited data

How the results depend on the processing

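The main count was 123 of all tested genes and 12 of the 142 tested genes of the lists. These became 69 and 6 with a pseudocount of 0.1, 0 and 0 with no filter on TPM (5011 and 77 at an unadjusted p under 0.05 in limma), 78 and 3 after correction for GC content and length, and 858 and 36 at an adjusted p under 0.10. Without a trend in eBayes 6 listed genes were called. With 1 pool left out, 0 to 16 genes and 0 to 1 listed genes were called. Only leaving out WT pool 6 gave any calls. Median centring moved the median of all tested genes from 0.08 to −0.05. The log2 difference of *Pmel* ranged from 2.77 (FPKM) to 4.65 (pseudocount of 0.1), of *Dct* from 2.37 to 5.67 and of *Mitf* from 0.87 to 1.56 under the same settings, and *Kit* stayed between 1.16 and 1.55. *Kitl* went from −0.36 to 0.06, the latter without *Shh*-/- pool 2. The cause of these changes was not tested. No paired analysis was possible because the groups share no replicate number in the labels.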
